A study of Mus musculus with 6 samples.

Results

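The primary granule genes described here are Mpo, Elane, Prtn3, Ctsg, Cst7, Ms4a3 and Fcnb. These 7 genes were taken by name, as genes of azurophil granules and of the promyelocyte stage, from a table of 28987 mouse genes, and all 7 passed the filter on low values in every comparison. Their transcripts were far more abundant in CD117-selected progenitors than in Ly6G+ cells for 6 of the 7. Fcnb was the exception: its level was similar in both populations with vehicle, and among Ly6G+ cells it was the 1 gene of the 7 that passed the test for Mdivi-1 treatment, where it fell by 45.6%.

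Neutrophil granules are filled in a fixed order as the cell matures. Primary, or azurophil, granules are made at the promyelocyte stage, secondary granules later, and the genes of each kind are switched on and off with the stage, so the transcripts largely disappear while the stored proteins remain in the mature cell. Myeloperoxidase makes hypochlorous acid, and the serine proteases of the same granules are stored in active form after cathepsin C trims them.

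RNA was sequenced from bone marrow of C57BL/6 mice with CBL and RUNX1 mutations, in 6 libraries. Stem and progenitor cells of the blood (HSCPs) were selected through CD117, the stem cell factor receptor encoded by Kit, before sorting of the mutant clone. They gave 1 library from vehicle-treated and 1 from Mdivi-1-treated animals. Mutant Ly6G+ myeloid cells, Ly6G being a surface protein of maturing neutrophils, were sorted and gave 2 libraries with vehicle and 2 with Mdivi-1, a compound used to block Drp1, the GTPase of mitochondrial fission (gene Dnm1l). All 4 groups carry the mutations, and cells without them were not analysed here. The sources used here do not give the alleles, the age of the mice, or the dose and duration of treatment. Each marrow came from a single mouse, but which mouse gave which library is not stated, and p-values measure only the spread between these libraries, which may be technical.

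Values are TPM, a share of all transcripts corrected for length, so levels of different genes can be compared. The libraries summed to between 963243.1 and 979168.3 TPM, and 11456 to 11930 genes reached 1 TPM in each. The read depth is unknown, since TPM holds no read totals. Kit stood at 72.2 and 64.9 TPM in the HSCP libraries and at 8.73 to 14.1 in the Ly6G+ libraries, and Ly6g at 186.6 and 90.1 against 641.7 to 839.8. The sorting markers therefore followed the labels, although Ly6g was present in the HSCP libraries, as were the secondary granule genes Camp (9477.4 and 8084.0 TPM) and Ltf (2851.1 and 2407.9 TPM). Dnm1l was at 30.6 and 35.5 TPM in HSCP and at 23.0 to 24.6 in Ly6G+.

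Promoter sequence is shown for 4 of the genes to let their arrangement be compared: Mpo, the most abundant, Elane and Prtn3, which neighbour each other, and Fcnb, which differed from the rest. Each is the 250 bases before the RefSeq start on GRCm38.p6, 5′ to 3′ on the gene's strand. Capitals mark GAGGAA, the core to which the ETS factor PU.1 binds, the related motif AGGAAGT of ETS factors, and TATAA as the core of the box for the TATA-binding protein.
Mpo (chr11:87793534-87793783, plus strand): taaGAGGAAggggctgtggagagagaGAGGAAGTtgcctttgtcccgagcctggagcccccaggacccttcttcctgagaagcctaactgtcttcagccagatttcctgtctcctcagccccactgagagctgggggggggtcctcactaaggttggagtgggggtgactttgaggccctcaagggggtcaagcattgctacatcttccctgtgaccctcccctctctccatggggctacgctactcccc
Elane (chr10:79886062-79886311, plus strand): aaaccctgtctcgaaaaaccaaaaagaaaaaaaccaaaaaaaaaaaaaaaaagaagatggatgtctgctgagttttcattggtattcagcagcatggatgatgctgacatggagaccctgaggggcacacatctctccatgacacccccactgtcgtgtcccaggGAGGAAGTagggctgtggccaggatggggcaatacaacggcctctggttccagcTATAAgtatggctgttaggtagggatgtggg
Prtn3 (chr10:79879417-79879666, plus strand): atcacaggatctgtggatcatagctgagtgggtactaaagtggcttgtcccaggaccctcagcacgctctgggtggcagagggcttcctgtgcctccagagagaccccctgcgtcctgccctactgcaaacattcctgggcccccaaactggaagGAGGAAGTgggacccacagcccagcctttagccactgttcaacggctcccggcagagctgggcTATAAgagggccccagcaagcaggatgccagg
Fcnb (chr2:28084879-28085128, minus strand): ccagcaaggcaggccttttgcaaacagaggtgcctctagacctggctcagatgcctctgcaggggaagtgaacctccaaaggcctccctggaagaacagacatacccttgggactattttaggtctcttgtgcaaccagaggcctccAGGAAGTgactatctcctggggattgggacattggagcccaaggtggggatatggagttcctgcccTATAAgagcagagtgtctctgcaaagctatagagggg
All 7 genes matched a RefSeq promoter. AGGAAGT, searched on both strands from 250 bases before to 50 after the start, was found in 6 of the 7, the exception being Ms4a3, and in 9.35% of 32851 promoters of the same length. In every one of the 6 it lay on the gene's own strand, at 223 bases before the start in Mpo, 84 in Elane, 94 in Prtn3, 206 in Ctsg, 63 in Cst7 and 103 in Fcnb. GAGGAA was present in 5 of the 7, namely Mpo, Elane, Prtn3, Ctsg and Ms4a3, against 28.3% of all promoters. These motifs overlap in Mpo, Elane and Prtn3, where they form the run GAGGAAGT. TATAA on the gene's strand was found in Elane, Prtn3 and Fcnb, at 31, 32 and 37 bases before the start, and in 17.5% of all promoters.

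Elane and Prtn3 therefore carried GAGGAAGT and TATAA in the same order and at nearly the same distances. Fcnb had AGGAAGT and TATAA in that order too, at 103 and 37 bases before the start, but without GAGGAA. The RUNX motif TGTGGT was found in 2 of the 7, Ctsg and Cst7, against 16.8% of all promoters, and its variant TGCGGT in 0 against 6.45%. The C/EBP motif TTGCNNAA was in 3, Cst7, Ms4a3 and Fcnb, against 10.8%, and the MYB motif AACNG was in 6 against 80.3%. The motifs were chosen with these sequences in view, and a match is a string of letters, not a measured site. The GENCODE models of Mpo, Elane, Prtn3 and Fcnb begin upstream of the RefSeq start. All printed bases of Prtn3 lie inside its model, as do most of those of Mpo and a smaller part of those of Elane and Fcnb. The motif distances above hold for the RefSeq start only.

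The comparison of populations asked how the granule genes differ between immature and maturing cells of the mutant clone. Mpo, which encodes myeloperoxidase (chromosome 11, 87793581 to 87804413, plus strand, mm10), reached 6028.5 TPM in the vehicle library of HSCP and 6267.9 in the treated one. The Ly6G+ libraries had 661.3 and 699.6 with vehicle and 705.0 and 727.2 with Mdivi-1. The HSCP libraries were both far above all 4 Ly6G+ libraries, and the HSCP mean of both treatments was 8.81-fold the Ly6G+ mean. Mpo ranked 9 and 7 among all genes of the HSCP libraries, and between 158 and 168 in Ly6G+. On the log2(TPM + 1) scale the difference of Ly6G+ minus HSCP was -3.14 (SE 0.0505, limma adjusted p = 2.58e-06). In bulk samples, fewer cells of a type and less RNA per cell cannot be told apart.

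The neutrophil serine proteases came next. Elane, neutrophil elastase (chromosome 10, 79886247 to 79888215, plus strand), was at 3068.4 and 3254.8 TPM in HSCP vehicle and Mdivi-1. Its Ly6G+ values were 400.4 and 426.1 with vehicle and 403.7 and 386.6 with Mdivi-1, so the populations did not overlap and the mean ratio was 7.82-fold (log2 difference -2.97, SE 0.0609, limma adjusted p = 4.87e-06). Prtn3, proteinase 3 (chromosome 10, 79874476 to 79883174, plus strand), was at 3216.3 and 3596.5 TPM in HSCP vehicle and Mdivi-1. In Ly6G+ cells the vehicle libraries had 458.6 and 463.8 and the treated ones 487.2 and 436.8. Again every Ly6G+ library was below both HSCP libraries, with HSCP 7.38-fold higher (log2 difference -2.88, limma adjusted p = 6.92e-06). The genes of elastase and proteinase 3 kept close to each other: the Elane level was 0.829 to 0.954 of the Prtn3 level in all 6 libraries.

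Ctsg, cathepsin G, lies on another chromosome (14, 56099881 to 56102574, minus strand). It was at 1648.0 and 1863.6 TPM in HSCP vehicle and Mdivi-1, while the Ly6G+ libraries had 237.2 and 265.4 with vehicle and 297.7 and 327.4 when treated. Every HSCP value was above every Ly6G+ value, by 6.23-fold between the means (log2 difference -2.64, limma adjusted p = 6.92e-06). Cst7, cystatin F, an inhibitor of lysosomal cysteine proteases that include cathepsin C (chromosome 2, 150570415 to 150578944, plus strand), was the least abundant of the 7 in Ly6G+. Its values were 203.5 and 245.2 TPM in HSCP vehicle and Mdivi-1, with 30.4 and 33.9 for vehicle-treated and 34.8 and 33.7 for Mdivi-1-treated Ly6G+ cells. Cst7 was thus lower in Ly6G+ by about the same factor as the serine proteases, with HSCP 6.76-fold higher (log2 difference -2.72, limma adjusted p = 6.92e-06). Ctsc, the gene of cathepsin C, was instead higher in Ly6G+ (log2 difference 0.42, limma adjusted p = 0.00136).

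Ms4a3 encodes a tetraspanning membrane protein of granulocyte and monocyte progenitors (chromosome 19, 11629496 to 11640851, minus strand). It was at 581.1 and 720.3 TPM in HSCP vehicle and Mdivi-1, with 144.2 and 136.3 for Ly6G+ cells given vehicle, against 148.2 and 155.7 for those given Mdivi-1. The populations were separate, but the ratio of 4.45 was the smallest of the 6 genes that passed (log2 difference -2.14, limma adjusted p = 6.92e-06). Each Ly6G+ library held 20.6% to 24.8% of the Ms4a3 level of the HSCP library of the same treatment, against 11.0% to 11.6% for Mpo, 11.9% to 13.9% for Elane, 12.1% to 14.4% for Prtn3, 14.4% to 17.6% for Ctsg and 13.7% to 16.7% for Cst7. Mpo thus retained the least and Ms4a3 the most of these 6 genes, and neither range overlapped that of another.

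Fcnb encodes ficolin B, a lectin that binds sugars on microbes and can start the lectin pathway of complement (chromosome 2, 28076378 to 28084885, minus strand). Its HSCP values were 195.1 TPM for vehicle and 154.7 for Mdivi-1, and its Ly6G+ values 208.2 and 208.8 for vehicle and 111.8 and 115.0 for Mdivi-1. The HSCP values lay between those of the 2 Ly6G+ groups. The log2 difference between populations was -0.18 (SE 0.119, limma adjusted p = 0.223). With vehicle libraries alone it was 0.10 (limma adjusted p = 0.3) and with Mdivi-1 libraries alone -0.45 (limma adjusted p = 0.00885), each against 1 HSCP library that is assumed to vary like the Ly6G+ pair, the only source of spread. Ly6G+ cells held 106.7% and 107.0% of the HSCP level of Fcnb with vehicle and 72.3% and 74.3% with Mdivi-1. The sign of the pooled difference turned under other scalings of the libraries, to 0.19 by median-of-ratios, 0.14 by upper quartile and 0.02 with S100a8 and S100a9 left out.

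**Figure D1:**
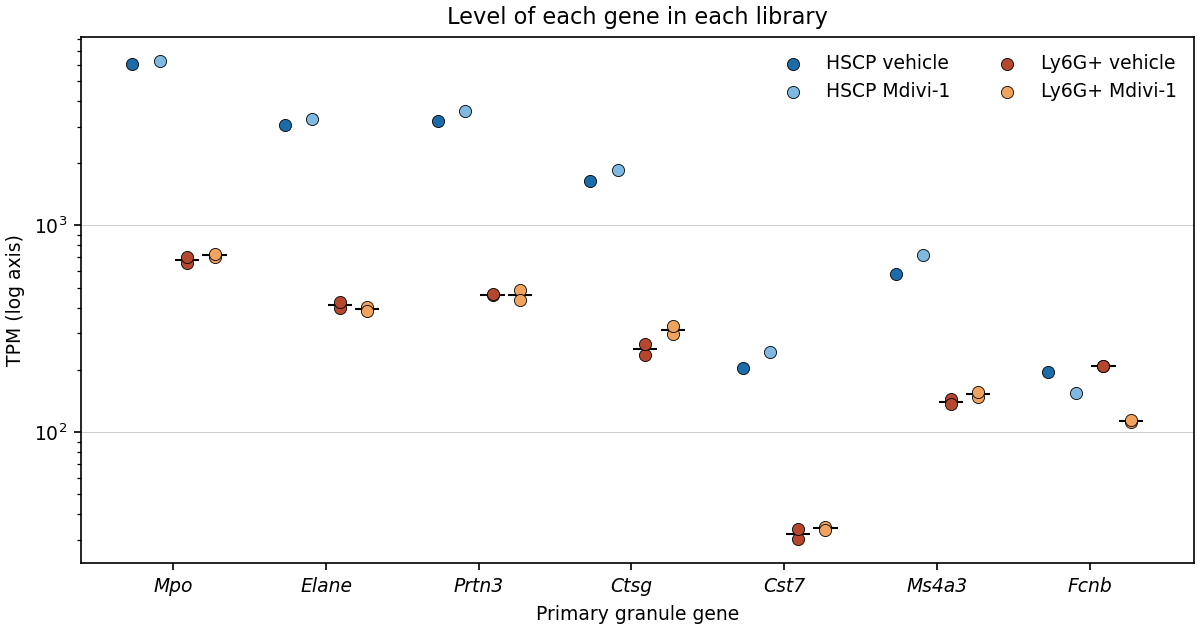
Level of each of the 7 genes in each of the 6 libraries, in TPM on a log axis; points are libraries, coloured by population and treatment, and short lines are the means of the 2 Ly6G+ libraries of a treatment. For 6 genes both HSCP points are above all Ly6G+ points, while for Fcnb the HSCP values of 195.1 and 154.7 lie between those of Ly6G+ vehicle and Ly6G+ Mdivi-1.

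In total 6 of the 7 genes were lower in Ly6G+ by the limma test, where 50.3% of the 12338 genes tested were lower and 22.2% higher. Lower calls were thus common, and the size of the change says more about these genes than the count. Counted from the largest fall in log2(TPM + 1), Mpo was number 6 of 12338, Elane 10, Prtn3 11, Cst7 14, Ctsg 16 and Ms4a3 125, whereas Fcnb was number 7173. This scale understates the falls of low genes. The eosinophil peroxidase gene Epx, 10.9-fold higher in HSCP, came behind Mpo, which was 8.81-fold higher. The median of the 7 differences was -2.72 against -0.35 over all genes tested. The same 6 had groups that did not overlap, a pattern that 52.5% of genes showed in that direction and 76.1% in either. Other scalings moved the all-gene median to between -0.18 and -0.03, and under them the differences of the 6 genes lay between -2.94 and -1.78. Higher and lower calls over all genes, 2736 and 6202 as deposited, became 4086 and 4283 with median-of-ratios scaling. Within each treatment, where the lone HSCP library is assumed to vary like the 2 Ly6G+ libraries that supply the spread, all 6 passed as well.

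The 7 genes together held 14941.0 and 16103.1 TPM in HSCP vehicle and Mdivi-1, or 1.55% and 1.67% of each library. In Ly6G+ they held 2140.4 and 2233.9 TPM with vehicle and 2188.4 and 2182.3 with Mdivi-1, or 0.219% to 0.228%. The summed level was therefore nearly the same in all 4 Ly6G+ libraries, while its make-up was not. Fcnb made up 9.73% and 9.35% of the sum for Ly6G+ vehicle, 5.11% and 5.27% for Ly6G+ Mdivi-1, against 1.31% and 0.961% in HSCP. Mpo made up 40.3% and 38.9% in HSCP and 30.9% to 33.3% in Ly6G+.

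**Figure D2:**
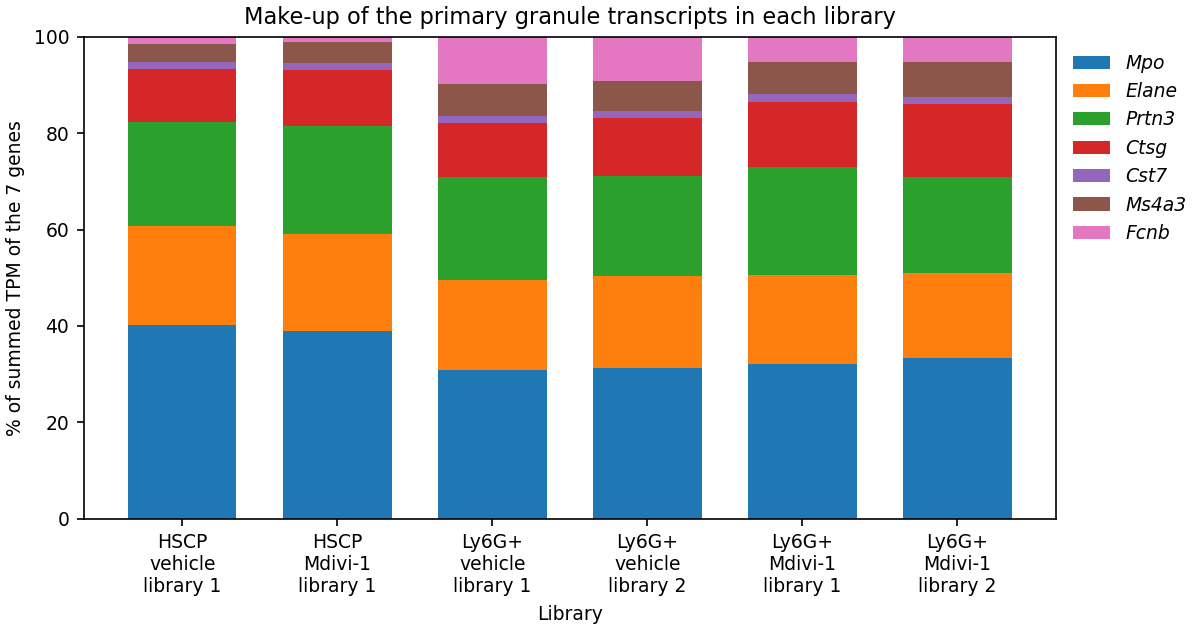
Share of each gene in the summed TPM of the 7 genes, in percent, with 1 bar per library. The Fcnb segment is near 1% in both HSCP bars, 9.73% and 9.35% for Ly6G+ vehicle, and falls to 5.11% and 5.27% under Mdivi-1.

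The order of levels was Mpo, Prtn3, Elane and Ctsg, from the highest down, in all 6 libraries. Prtn3 and Elane did not differ beyond the spread of the HSCP libraries, where their ranges overlap, but were separate within each Ly6G+ group. Below them the order changed. Ms4a3, Cst7 and Fcnb followed in HSCP, Fcnb, Ms4a3 and Cst7 in Ly6G+ vehicle, and Ms4a3, Fcnb and Cst7 in Ly6G+ Mdivi-1. The ratio of Ms4a3 to Fcnb was 0.693 and 0.653 for Ly6G+ vehicle, against 1.33 and 1.35 for Ly6G+ Mdivi-1.

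The comparison within Ly6G+ cells asked what Mdivi-1 did to the transcripts that remain there. The Fcnb mean was 208.5 ± 0.456 TPM in vehicle libraries and 113.4 ± 2.25 in treated ones (SD, n = 2 each), and both treated libraries were below both vehicle libraries. The fall of 45.6% had a log2 difference of -0.87 (SE 0.0505, limma adjusted p = 0.00449), which ranked 239 from the lowest of 11775 genes tested. Fcnb was the 1 member that passed, with 4.24% of all genes lower and 2.46% higher. Median-of-ratios scaling gave 392 higher and 364 lower calls in place of 290 and 499, and Fcnb stayed lower under it at -0.81. When either vehicle library was left out, its difference hardly moved but the call was lost, at -0.88 without library 1 (limma adjusted p = 0.0575) and -0.87 without library 2 (limma adjusted p = 0.0569).

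Cathepsin G showed a difference of the opposite sign that did not pass. The Ctsg mean was 251.3 ± 19.9 TPM in vehicle libraries and 312.5 ± 21.0 in treated ones (SD, n = 2 each), and the treated libraries were both above the vehicle libraries. Its log2 difference was 0.31 (SE 0.0812, limma adjusted p = 0.0925, unadjusted 0.0116). Over the alternative settings it lay between 0.23 and 0.40, with limma adjusted p from 0.0628 to 0.281.

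The other 5 genes differed less. The log2 difference was 0.07 for Mpo (limma adjusted p = 0.438), -0.06 for Elane (0.532), 0.00 for Prtn3 (0.999), 0.09 for Cst7 (0.533) and 0.12 for Ms4a3 (0.298), with SEs of 0.0527 to 0.0786. None of these passed, and the sign of Elane and Prtn3 turned with the setting. Groups did not overlap for Mpo, Ctsg and Ms4a3, which were higher with Mdivi-1, or for Fcnb, which was lower, and they overlapped for Elane, Prtn3 and Cst7. Over all genes tested, 21.0% were separate in the higher and 36.7% in the lower direction, so that 4 of 7 is near the 57.7% of all genes in either direction. The median of the 7 differences was 0.07, against -0.05 over all genes tested.

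In HSCP, with 1 library per treatment and no test, the same gene stood apart. Fcnb was 20.7% lower with Mdivi-1, a log2 ratio of -0.33, and the other 6 were all higher, by ratios of 0.06 for Mpo, 0.09 for Elane, 0.16 for Prtn3, 0.18 for Ctsg, 0.27 for Cst7 and 0.31 for Ms4a3. Among 7987 genes with a mean of at least 10 TPM the median ratio was 0.04. None of the 7 reached a ratio of 1 in size, which 0.388% of those genes did upward and 0.538% downward.

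The test of whether the treatment difference itself differed between populations gave 0 of 7. Over all 12338 genes limma called 0 genes, 0% in either direction, while 11.3% had an unadjusted p under 0.05. Fcnb had the largest such difference of the 7, with a larger fall in Ly6G+ (-0.54 on the log2 scale, SE 0.0862, limma adjusted p = 0.188, unadjusted 0.00169). The remaining 6 lay between -0.19 for Ms4a3 and 0.14 for Ctsg, with limma adjusted p of 0.529 to 0.957. This test takes the spread from the Ly6G+ libraries and assumes that the lone HSCP libraries vary like them.

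**Figure D3:**
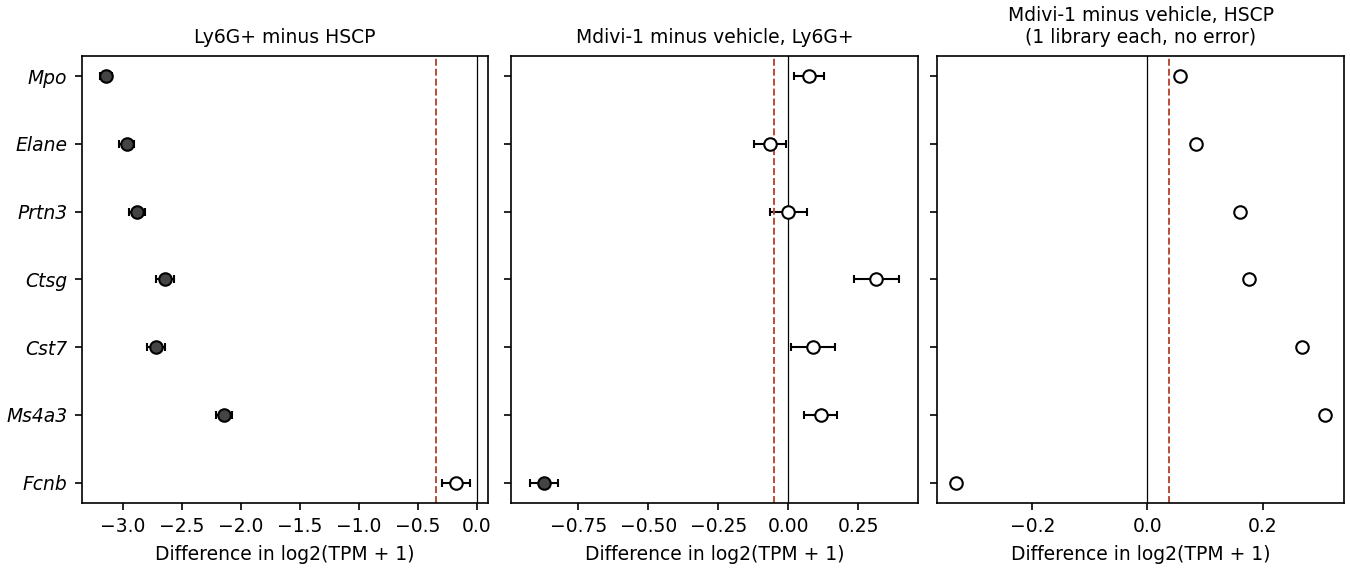
Differences in log2(TPM + 1) for each gene, between populations (left), with Mdivi-1 in Ly6G+ (middle) and with Mdivi-1 in HSCP (right); bars are the limma SE, filled points passed an adjusted p of 0.05, and the dashed red line is the median of all genes in that comparison. Fcnb lies at -0.18, -0.87 and -0.33, apart from the other 6 genes in each panel.

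Markers of other cells moved with these comparisons. The summed level of 9 stem and progenitor markers was 497.9 to 554.7 TPM in HSCP, 173.0 to 182.7 in Ly6G+ vehicle and 140.2 to 144.1 in Ly6G+ Mdivi-1. The 8 eosinophil markers summed to 699.5 TPM in the HSCP library given vehicle, to 397.4 in the treated one and to 82.8 to 91.6 in Ly6G+. The 8 cycling markers summed to 1661.6 and 1860.2 TPM in HSCP against 929.3 to 1010.3 in Ly6G+. For the 7 erythroid markers the sums were 1935.8 and 1946.7 against 775.5 to 1120.8. These lists were thus lower in Ly6G+ in sum, as were the 6 granule genes. The 9 monocyte markers went the other way, with sums of 1521.9 to 1604.0 TPM in HSCP against 1951.7 to 2248.1 in Ly6G+. Of these 9, 6 were called higher in Ly6G+ and 1 lower, beside 22.2% higher and 50.3% lower over all genes tested. The 8 basophil and mast cell markers summed to 495.8 and 503.9 TPM for Ly6G+ vehicle and to 166.0 and 174.7 for Ly6G+ Mdivi-1, with 197.9 to 265.5 in HSCP. Between populations 3 of the 6 tested were higher in Ly6G+, among them Prss34 (1.47), and 2 were lower, Cpa3 (-1.44) and Gata2 (-1.91). The all-gene shares were again 22.2% higher and 50.3% lower. The 9 B cell markers went from 141.1 and 141.8 in Ly6G+ vehicle to 22.4 and 23.3 in Ly6G+ Mdivi-1, and the 7 megakaryocyte markers from 247.4 and 251.6 to 99.4 and 115.7. The 9 monocyte markers went from 2216.7 and 2248.1 to 1951.7 and 1992.2. Ly6c2, the largest part of that sum, fell from 1268.6 and 1269.5 TPM to 944.3 and 933.3. F13a1 rose from 260.3 and 259.7 to 334.0 and 355.2. Of the 9 markers 1 was called higher and 1 lower with Mdivi-1, beside 2.46% higher and 4.24% lower over all genes tested. Their median was -0.06 against -0.05 over all genes. None of the markers of these lists was at 0 in every library of a group. Their part in the Fcnb difference and in the differences between populations was not tested.

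Other proteins of the primary granule were examined next, from a list of 14 genes. Between populations 7 of the 13 tested were higher and 5 lower in Ly6G+, with a median of 0.21, so this list did not share the fall of the 6 genes above. Over all genes tested 22.2% were higher and 50.3% lower, with a median of -0.35. Prss57, a serine protease of the same granules that lies near Elane, was lower (-2.40, limma adjusted p = 0.000136), from 19.0 and 16.9 TPM in HSCP to between 1.86 and 4.5 in Ly6G+. The lysosomal hydrolases Gaa (-1.24) and Arsb (-1.02) were also lower, whereas lysozyme Lyz2 was higher by 1.71 (limma adjusted p = 6.92e-06). The Gaa call was lost without either HSCP library (limma adjusted p = 0.0829 and 0.0897). Bpi was listed at 0 in all 6 libraries. With Mdivi-1 in Ly6G+, 1 of these 13 was higher, the fucosidase Fuca1 at 0.49, and 3 were lower: the granule membrane protein Cd63 at -0.50, Lyz2 at -0.44 and Arsb at -0.43. The all-gene shares were 2.46% higher and 4.24% lower. Prss57, Lyz2 and Arsb have 60.7%, 67.2% and 60.4% of their 31-base words to themselves, against at least 87.9% for each of the 7 genes. Their reads may therefore be shared with other genes. The words were counted without regard to strand, and the Prss57 model overlaps that of Fstl3 on the opposite strand. The strand setting of the deposited values is not given.

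Genes that fold, trim and pack granule proteins numbered 13, of which 3 were higher and 5 lower in Ly6G+ than in HSCP. The shares over all genes tested were 22.2% higher and 50.3% lower. The chaperone calreticulin, Calr, was lower (-2.12, limma adjusted p = 6.92e-06), and Lyst, a regulator of lysosome and granule size, was higher by 1.49. With Mdivi-1 in Ly6G+, 2 rose and 0 fell, against 2.46% and 4.24% of all genes tested. Srgn, serglycin, the proteoglycan core that holds elastase in the granule, went from 584.3 ± 15.6 to 1202.0 ± 83.3 TPM (SD, n = 2 each), a log2 difference of 1.04 (limma adjusted p = 0.00477), and Calr rose by 0.32 (limma adjusted p = 0.0483). Elane, the protease that serglycin binds, did not pass in the same libraries.

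Of 13 promyelocyte-stage genes, 4 were higher and 8 lower in Ly6G+, with a median of -0.57. Among all genes tested, 22.2% were higher and 50.3% lower, and the median was -0.35. Gstm1, a glutathione transferase, was at -2.20 and Dmkn at -1.95. With Mdivi-1 in Ly6G+, 2 rose, among them the chaperone Hsp90b1 by 0.31, and 2 fell, the transferase Mgst2 at -0.65 and the transcription factor Cebpe at -0.74 (limma adjusted p = 0.0335). Over all genes tested 2.46% rose and 4.24% fell. The list of 11 transcription factors of granule genes, which also holds Cebpe, had 4 higher and 6 lower in Ly6G+. Its median of -0.295 was close to that of all genes. Gfi1, a repressor needed for neutrophil formation, was at -2.20, Myb at -2.05 and Cebpa at -1.44, and Klf4, a factor of monocytes, at 0.90. Spi1, the gene of PU.1, was also higher in Ly6G+, at 0.80 (limma adjusted p = 6.49e-05), as were Cebpd at 0.73 and Cebpb at 0.67. Runx1, 1 of the mutated genes, was lower, at -0.63 (limma adjusted p = 0.00188). Spi1, Cebpd, Cebpb and Runx1 are named outside the naming rule, as was Ctsc above. With Mdivi-1 in Ly6G+, 0 of these factors rose and 2 fell, Cebpe and the monocyte factor Irf8 at -0.59 (limma adjusted p = 0.0134).

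Genes of later granules went the other way between populations. Of 16 secondary granule genes, 15 were higher in Ly6G+ and 0 lower, with a median of 1.37. Of 14 late neutrophil genes, 14 were higher, with a median of 3.14. Among all genes tested, 22.2% were higher and 50.3% lower. With Mdivi-1 in Ly6G+, 4 secondary granule genes rose and 6 fell (median -0.22), and 10 late genes rose and 1 fell (median 0.53). Of all genes tested 2.46% rose and 4.24% fell. No secondary granule or late gene is named for this treatment comparison. The calls named above for Mdivi-1 in Ly6G+, in the azurophil, packing, promyelocyte-stage and factor lists, were lost when either vehicle library was left out.

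**Figure D4:**
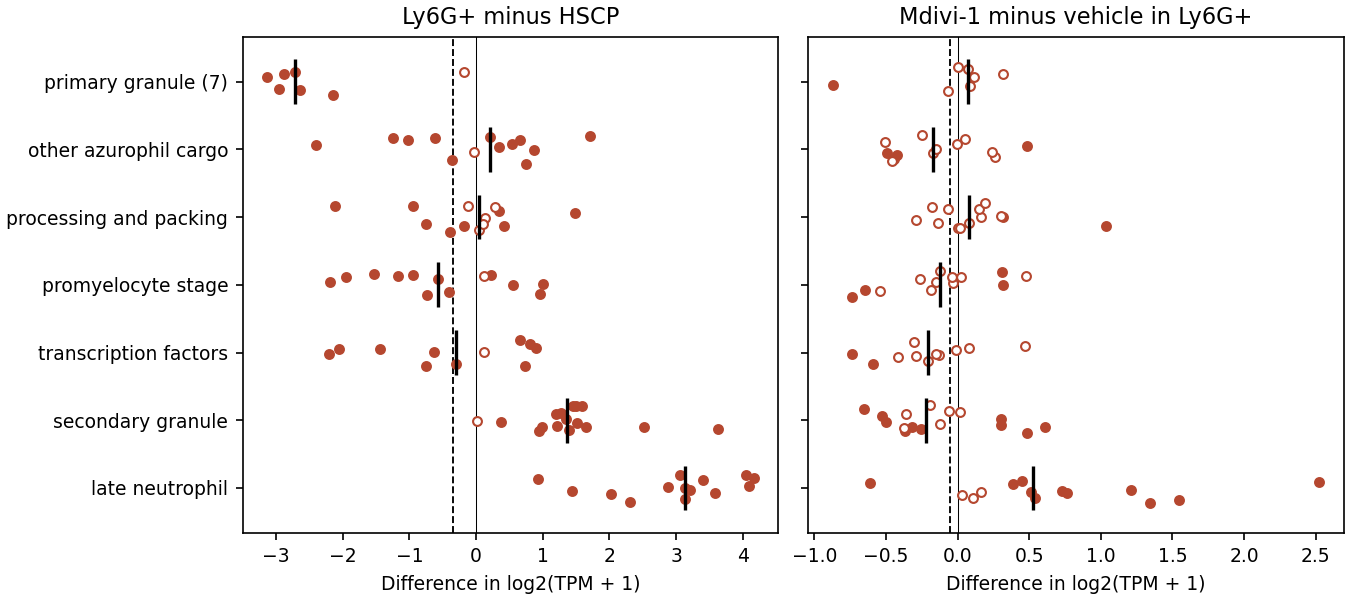
Differences in log2(TPM + 1) of the 7 primary granule genes and of 6 other lists (rows), between populations (left) and with Mdivi-1 in Ly6G+ (right); each point is a gene, filled where limma passed, thick bars are list medians and the dashed line is the median of all genes tested. The primary granule row has its median at -2.72 on the left and 0.07 on the right, where Fcnb is the filled point.

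Genome neighbours were compared because several of the 7 genes lie in clusters. Within 100 kb there were 43 protein-coding neighbours, members left out, of which 40 are in the table and 24 were tested. Between populations 13 of these were lower and 7 higher in Ly6G+, beside 50.3% lower and 22.2% higher over all genes tested. Elane and Prtn3 are 3073 bp apart. Plppr3, on the opposite strand and overlapping the 5′ edge of the Prtn3 model, went from 94.2 and 110.4 TPM in HSCP to 15.0 to 18.3 in Ly6G+, at -2.54 (limma adjusted p = 6.92e-06), but the strand setting of the counting is not given, so its reads and those of Prtn3 may not be separate. An antisense gene, Gm11505, lies within the Mpo model. Epx, the eosinophil peroxidase gene 59587 bp from Mpo, was at 49.6 and 26.1 TPM in HSCP and 2.91 to 4.55 in Ly6G+, a difference of -3.06 (limma adjusted p = 1.95e-05) close to that of Mpo. Of the 5 tested neighbours of Mpo, 3 were lower, Epx, Tspoap1 (-1.57) and Mks1 (-0.63), and 1 was higher, Supt4a (0.34).

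Ctsg lies among granzyme and mast cell protease genes. Of its 9 neighbours, 8 were at or under 0.0824 TPM in all libraries. The ninth, Mcpt8, a basophil protease 14608 bp away, was at 70.5 and 49.0 TPM in HSCP vehicle and Mdivi-1, while the Ly6G+ libraries had 249.4 and 249.2 for vehicle and 64.8 and 70.8 for Mdivi-1. It thus fell with treatment in Ly6G+, at -1.87 (limma adjusted p = 0.00188), where Ctsg was higher in both treated libraries without passing. Between populations Mcpt8 was at 1.13 (limma adjusted p = 0.0206), a call lost when treatment was not in the model (limma adjusted p = 0.171). Near Ms4a3, with Mdivi-1 in Ly6G+, the basophil and mast cell receptor gene Ms4a2, 5777 bp away, fell (-0.98, limma adjusted p = 0.0183) and Ms4a6d rose by 0.46 (limma adjusted p = 0.0349). Both of these calls were lost without either vehicle library, whereas that of Mcpt8 was kept.

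**Figure D5:**
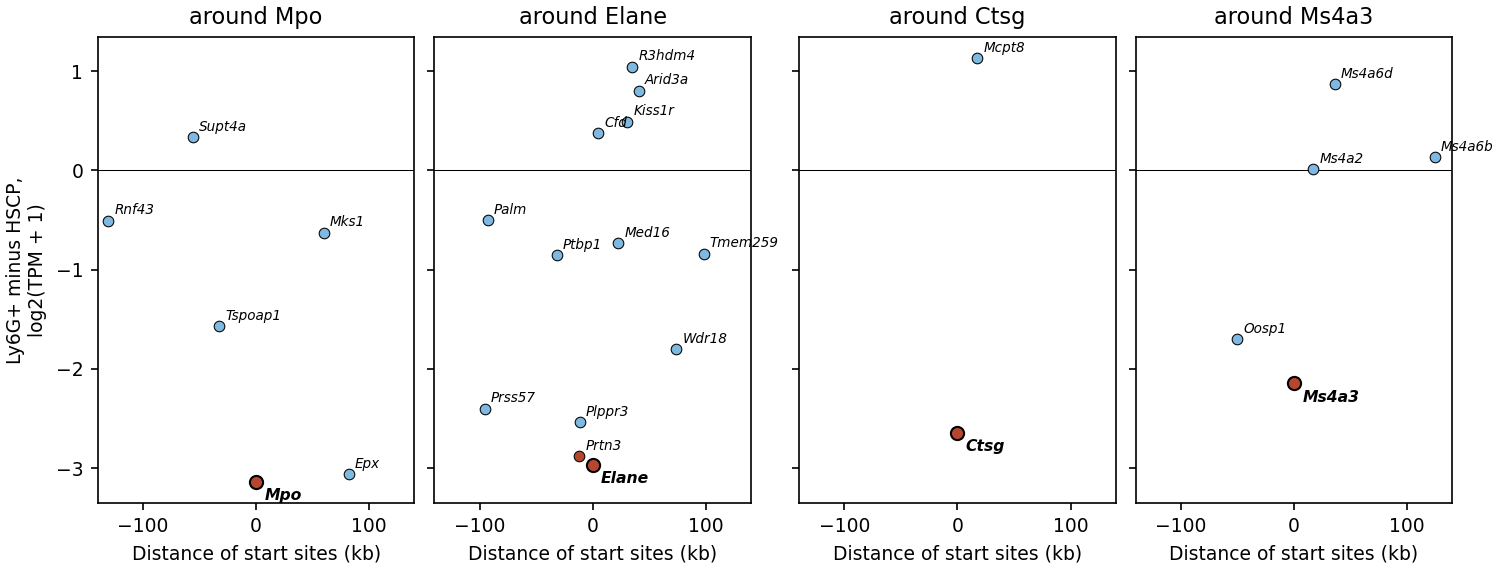
Difference between populations in log2(TPM + 1), Ly6G+ minus HSCP, of the tested genes within 100 kb of Mpo, Elane, Ctsg and Ms4a3, against the distance between start sites in kb; red points are primary granule genes and blue points their neighbours. Epx at -3.06 is close to Mpo in height but not in start site, and Mcpt8 at 1.13 lies far above Ctsg at -2.64.

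Finally, the genes with the most similar pattern over the 6 libraries were listed by Euclidean distance between log2(TPM + 1) profiles centred on their own mean, which describes likeness of change and not of level. For Elane the nearest of 7688 genes was Prtn3 (distance 0.154), and for Mpo it was Elane (0.255). Plppr3 was nearest to Ctsg (0.228) and Cst7 (0.234), and Ybx3 to Ms4a3 (0.107). The nearest to Fcnb were Siglecg (0.199, Pearson's r 0.977), Lpl (0.242, r 0.976) and P2rx1 (0.264, r 0.96), none of which is a member. The mean profile of the 7 genes, Fcnb included, was compared with 7682 genes, the members left out. It was nearest to Galk1 (0.099), Rpl12 (0.128), Ifrd2 (0.172), Pebp1 (0.175) and Exosc5 (0.194). All of these profiles share the same 6 libraries.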

How the data were processed

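The deposited table holds TPM values for 6 libraries, although its name speaks of counts: the values are not whole numbers and sum to nearly the same total in every library. The authors used bcl2fastq, CASAVA 1.8 and kallisto with mm10, per the submitters' processing notes; the sources used here do not give the kallisto version, annotation, strand setting or how transcripts were joined into genes. Gene IDs were matched to GENCODE M21 (27458 with a symbol, 1529 without). Here, log2(TPM + 1) was tested with limma 3.58.1 in R 4.3.3 (trended, robust prior). Genes needed at least 1 TPM in 2 or more of the libraries compared, with Benjamini-Hochberg adjustment at 0.05. This scale understates changes of low genes. Populations were compared over all 6 libraries with treatment as a covariate. HSCP treatment has 1 library per arm and no test. The fit was tested on simulated data. Motifs and shared 31-base words were counted with Python 3.11.15.

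The members, gene lists and tests were chosen with earlier results of these data known. Named genes are all 7 members, up to 4 genes per list and comparison (first those past the threshold by size of change, then the most expressed), protein-coding neighbours within 100 kb, and the genes nearest in profile; of these, a subset is printed, and 1 gene of the promyelocyte-stage list is not reported here. Same-numbered Ly6G+ libraries did not deviate together (correlation -0.031), and the labels state no pairing. Alternatives changed the pseudocount, scaling, filter, prior, covariate, replicate block and libraries.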

Additional observations from a re-analysis of the deposited data

How the results depend on the processing

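Depth is unknown, each HSCP arm holds 1 library and the Ly6G+ treatment test has 2 libraries per arm. The population call of Mpo, Elane, Prtn3, Ctsg, Cst7 and Ms4a3 was kept under all 17 alternatives, and 6 members were called except where Fcnb made it 7 (without the HSCP vehicle library, and in Mdivi-1 libraries alone). The sign turned for Fcnb between populations with median-of-ratios (0.187), upper-quartile (0.139), S100a8 and S100a9 left out (0.021), the HSCP Mdivi-1 library left out or vehicle libraries alone (0.095 each); leaving out 1 library at a time gave -0.445 to 0.095. With treatment in Ly6G+ it turned for Elane (0.001, median-of-ratios) and Prtn3 (-0.078 to 0.079 leaving out a library, below 0 in 2 of the 4), and in the treatment by population test for Mpo (-0.023 to 0.058 leaving out a library, below 0 in 2 of the 4). The cause was not tested.

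Over all genes, treatment in Ly6G+ called 789, against 218 with no filter, 346 with a constant prior and 22 to 279 when a library was left out; the members called went from 1 to 0 without either vehicle library (0 to 1 over the 4). Of calls for treatment in Ly6G+, 36.8% were higher, 51.9% with median-of-ratios and 50.1% with upper-quartile scaling. Between populations 30.6% were higher, against 48.8%, 46.3% and 40.1% with S100a8 and S100a9 left out. Treatment by population called 0, against 1 (pseudocount 0.1), 6 (pseudocount 10), 6 (at least 5 TPM) and 0 to 2 without a library, none of them a member. In HSCP 74 genes passed the fold, against 38 with pseudocount 10.

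With the replicate number as a block, the Ly6G+ treatment test called 325 genes. Fcnb was still called (limma adjusted p = 0.0168), and the calls of Fuca1, Arsb, Calr, Cebpe, Hsp90b1 and Ms4a6d were among those lost. The labels do not say that the numbers pair the libraries.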
